A study of Mus musculus with 20 samples.

Results

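The Y RNAs Rny1 and Rny3, the 7SK RNA Rn7sk, the 7SL RNAs Rn7s1 and Rn7s2, the vault RNA Vaultrc5, and Rmrp and Rpph1, the RNA components of RNase MRP and RNase P, were followed in epididymosomes, the extracellular vesicles of epididymal fluid, from the mouse cauda epididymis. They were chosen by gene symbol and not by their values, but with earlier results of these data known. They are 8 of 72034 annotated features in one count table and 8 of 59035 in the other, and all 8 passed the filter on low counts in both tables.

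RNA polymerase III transcribes these genes, and each product works inside a complex with proteins. Y RNAs fold their ends together into a stem that the protein Ro60 binds, and fragments of Y RNAs are a known part of the RNA of extracellular fluids. 7SK holds the elongation kinase P-TEFb inactive in the nucleus, 7SL is the scaffold of the signal recognition particle that brings nascent secretory proteins to the endoplasmic reticulum, vault RNAs lie in the vault particle, RNase P trims tRNA precursors and RNase MRP acts on ribosomal RNA precursors.

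The groups were MSUS, 5 males whose litters were taken from the dam at unpredictable times for 3 h a day over the 14 days after birth while the dams were stressed by forced swim or restraint, and Control, 5 males of undisturbed litters. All males were 9 months old, and no label used here names their strain. The comparison asks whether stress in early life changes the RNA of these vesicle pellets in adulthood. Vesicles were pelleted at 120000 rcf for 2 h once sperm had been removed by swim-up, and each pellet gave 1 small RNA library that was sequenced in 2 runs. Whether males of a group came from the same litter is not stated, so a p-value reflects only how these 10 animals vary. A pellet pools all vesicles of the fluid, so fewer vesicles of a kind and less RNA per vesicle cannot be told apart. Whether these RNAs lay inside vesicles or in other material of the pellet was not tested.

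One table of estimated counts is labelled with size selection for miRNAs and the other without it. By these labels alone they are called the selected table ("labelled with" on plots) and the unselected table ("labelled without"). A library summed to between 1872084 and 3647956 counts in the selected table and to between 215231 and 871461 in the unselected table. The share of mature miRNAs was 10.9 to 17.0% in the selected and 52.4 to 72.2% in the unselected table, so the labels go against the contents, and any direction between the tables refers to the labels. Within the selected table, tRNA took 23.8 to 66.0% of counts in MSUS libraries and 14.5 to 43.6% in Control libraries. Control 9, Control 11 and MSUS 14 had the lowest tRNA shares, at 14.5, 25.3 and 23.8%, against 34.6% or more in the other 7 libraries, and MSUS 8 had the highest. Crisp1, a secreted protein of the epididymal epithelium, was present in every library, at 670 to 4106 CPM (counts scaled to a common library total) of the library in that table. The summed level of 15 epididymal transcripts, 7 of them above 0 in every library, was 951 to 4299 CPM in MSUS and 2719 to 6427 CPM in Control libraries. Sperm and spermatid transcripts (13 of 14 above 0 in every library) summed to 248 to 554 CPM in MSUS and 298 to 541 CPM in Control libraries. Blood cell transcripts (8 of 10) summed to 46.1 to 189 CPM in MSUS and 110 to 263 CPM in Control libraries, and muscle and stroma transcripts (10 of 10) to 170 to 1181 CPM in MSUS and 353 to 1152 CPM in Control libraries. No defining marker that stood in the table was at 0 in all libraries. Some epididymal ones were near 0 throughout, such as Lcn8 (0 to 0.508 CPM) and Defb41 (0 to 0.345 CPM). The part of these cells in the results below was not tested.

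The sequences of the Y RNAs are shown because they set how far their rows can be told apart. They are the transcripts of GENCODE vM21 on GRCm38. Rny1 lies on the minus strand at chr6:47788069-47788180 and Rny3 on the plus strand at chr6:47781624-47781725, both between genes, with Pdia4 as the nearest coding gene. Capitals mark the bases that RNAfold paired in the end stem, 17 pairs in Rny1 and 21 in Rny3.
Rny1: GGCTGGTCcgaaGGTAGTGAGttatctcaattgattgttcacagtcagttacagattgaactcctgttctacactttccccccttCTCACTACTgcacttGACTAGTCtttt
Rny3: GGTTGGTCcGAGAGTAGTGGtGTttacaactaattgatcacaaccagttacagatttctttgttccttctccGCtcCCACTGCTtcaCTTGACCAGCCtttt
The mature RNAs are 112 and 102 nt long, and 72.3% of 112 aligned positions were identical. Both end in 4 T, the mark at which RNA polymerase III stops.

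Annotated copies of Rny1 were found by blastn at 18 places in the genome's transcripts. Of these, 17 and 16 were rows of the selected and unselected tables, and their counts summed to 14.0 and 42.2% of those of Rny1. The copy with the most counts was Gm24372, at 19407 and 11316 summed counts. Gm24379, on the plus strand at chr2:158487602-158487687, matches the 3' part of Rny1 in 34 of 38 positions, and capitals mark the positions that differ.
Rny1 3' stretch: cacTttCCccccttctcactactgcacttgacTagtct
Gm24379: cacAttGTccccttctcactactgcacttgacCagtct
A short read from the lower-case run of this stretch cannot be assigned to one of the pair by its sequence. Rny3 had 1 annotated copy, which was a row of neither table.

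Rn7s1 (chr12:69159295-69159594, plus strand) and Rn7s2 (chr12:69361182-69361481, minus strand) are identical in all 300 positions. Their values were equal in 10 of 10 libraries of both tables. They are therefore reported as 1 quantity, the value of each row, and the 8 genes give 7 distinct quantities. A further 18 and 16 copies of 7SL were rows of the selected and unselected tables, with summed counts of 89.0 and 188% of those of Rn7s1.

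The remaining genes differ in how many annotated copies they have and in the counts on those copies. Rn7sk (chr9:78175303-78175633, minus strand, between genes, nearest coding gene Ick) has 248 annotated copies, of which 120 and 113 were rows, with 58.3 and 125% of its own counts. Vaultrc5 (chr18:36801866-36802008, plus strand, between genes, nearest coding gene Zmat2) has 1 copy, with 0.159 and 0.293%. Rmrp (chr4:43492788-43493058, minus strand) has none, and its values were whole numbers in 9 of 10 and 10 of 10 libraries of the selected and unselected tables. Values were whole in 7 and 5 libraries for Vaultrc5, in 3 and 3 for Rny3, in 0 and 2 for Rpph1, and in none for Rny1, Rn7sk and Rn7s1. Most values of Rny3 were thus fractional although its copy was a row of neither table. Rmrp overlaps an exon of a lincRNA gene of the same name on its own strand and lies opposite an exon of Ccdc107. Rn7s1 and Rn7s2 each overlap a pair of annotated miRNA genes on the same strand, Gm47287 and Gm47295 in Rn7s1 and Gm47299 and Gm47305 in Rn7s2. Rpph1 (chr14:50807449-50807767, minus strand) lies within an exon of Ccnb1ip1 on the same strand and 74 bp from Parp2, and its copies held 2.43 and 16.6% of its counts. Since no source used here describes how reads over shared positions were divided, the rows of Rmrp, Rpph1, Rn7s1 and Rn7s2 are uncertain to that extent.

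Together the 8 rows took 0.957 to 1.69% of a library in the selected table and 0.634 to 1.67% in the unselected table. They made up 83.7 to 87.7% and 66.9 to 75.8% of all counts on the transcript types misc_RNA and ribozyme, and Rny1 alone made up 34.6 to 49.7% and 31.7 to 51.5% of them. Levels were compared between genes per length, as CPM of the library per 100 nt. Rny1 was the highest in the selected table, at 6048 ± 1382 CPM per 100 nt (SD, n = 10), followed by Rny3 at 1775 ± 471, Vaultrc5 at 728 ± 273, Rmrp at 372 ± 84.0, Rn7sk at 280 ± 106, Rn7s1 at 233 ± 76.0 and Rpph1 at 123 ± 27.4. The order of Rny1, Rny3, Vaultrc5 and Rmrp held in 10 of 10 libraries per length. In CPM of the library not set per length, Rmrp was above Vaultrc5 in MSUS 2, MSUS 4, MSUS 14, Control 9 and Control 11. It was below Vaultrc5 in the remaining libraries, and Vaultrc5 was above Rny3 in Control 7. Whether the number of short fragments grows with transcript length was not tested. Per length, Rmrp lay above Rn7sk in 8 of 10 and Rn7sk above Rn7s1 in 6 of 10. By CPM of the library alone, Rmrp was below Rn7sk in MSUS 4, MSUS 14, Control 5 and Control 9. These neighbours were thus not separated beyond their spread. Levels in the unselected table were highest for Rny1 at 6275 ± 2498, then Rny3 at 1698 ± 309 and Vaultrc5 at 964 ± 327 CPM per 100 nt. This order held in 10 of 10 libraries per length. Not set per length, Vaultrc5 was above Rny3 in Control 3, Control 5 and Control 7 of that table. Rn7s1 at 138 ± 40.7 and Rn7sk at 114 ± 30.3 kept their order in 7 of 10 per length. Rpph1 at 73.0 ± 12.1 lay above Rmrp at 71.3 ± 27.7 in 4 of 10 per length. By CPM of the library alone, Rn7s1 was below Rn7sk in MSUS 4, MSUS 8, MSUS 14, Control 5, Control 9 and Control 11. All of these genes but Rmrp have annotated copies that share sequence with them, and how reads were divided among copies is not described. The level of a row need not be the level of its family.

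No member passed the test of MSUS against Control in either table. The sign depended on how libraries were scaled for all 7 quantities in the selected table and for Rny1 and Rny3 in the unselected table. The values below are CPM scaled by TMM, which sets libraries so that most features do not differ. For the selected table, edgeR called 0 of 10998 features at an adjusted p of 0.05 (0% called) and 5.77% had an unadjusted p under 0.05. Among the 7 quantities 1, Rpph1, was under 0.05 before adjustment. DESeq2 called 33 features, none of them a member. For the unselected table, edgeR and DESeq2 each called 0 of 1075 features (0% called), 7.91% had an unadjusted p under 0.05, and no member did.

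Rny1, the more abundant Y RNA, had 7816, 6666, 8073, 12079 and 6951 CPM in MSUS 2, 4, 6, 8 and 14, against 6637, 6192, 5264, 4597 and 6203 CPM in Control 3, 5, 7, 9 and 11 of the selected table. The groups did not overlap, but the lowest MSUS library stood next to the highest Control library, and 0.864% of all features tested had groups that did not overlap. The means were 8317 ± 2182 CPM in MSUS and 5778 ± 828.7 CPM in Control libraries (SD, n = 5 each), a log2 fold change of +0.53 (SE 0.26, edgeR adjusted p = 0.875), which turned to −0.13 with library size only and to −0.0040 when scaled by mature miRNAs. MSUS 8, the highest library by TMM-scaled CPM, had a TMM factor of 0.411 and a tRNA share of 66.0%. Its 4885 CPM of the library was the second lowest of the 10. Without MSUS 8 the log2 fold change was +0.36.

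The same RNA in the unselected table had 9855, 3434, 8685, 6259 and 12413 CPM in MSUS libraries, against 7828, 4867, 5803, 8587 and 8505 CPM in Control libraries. The groups overlapped, and MSUS held both the lowest and the highest library. The log2 fold change was +0.19 (SE 0.29, edgeR adjusted p = 0.805), and it turned to −0.12 with library size only, to −0.14 when scaled by miRNAs and to −0.015 without MSUS 14. Here 1.4% of features tested had groups that did not overlap, and no member was among them.

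Rny3, the second Y RNA of the mouse, had 1852, 1794, 1932, 3137 and 1882 CPM in MSUS libraries of the selected table, against 1468, 2101, 1467, 1249 and 1764 CPM in Control libraries. MSUS libraries stood above all Control libraries but Control 5. With TMM it had a log2 fold change of +0.40 (SE 0.23, edgeR adjusted p = 0.882), which was −0.25 with library size only and −0.14 when scaled by miRNAs. The unselected table held Rny3 at 2242, 1376, 2123, 2031 and 2295 CPM in MSUS libraries, against 1607, 1832, 1937, 1777 and 1841 CPM in Control libraries. Of the MSUS libraries, 4 stood above all Control libraries and MSUS 4 stood below all of them. Their log2 fold change was +0.16 (SE 0.20, edgeR adjusted p = 0.773), and −0.14 with library size only and −0.17 when scaled by miRNAs.

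**Figure D1:**
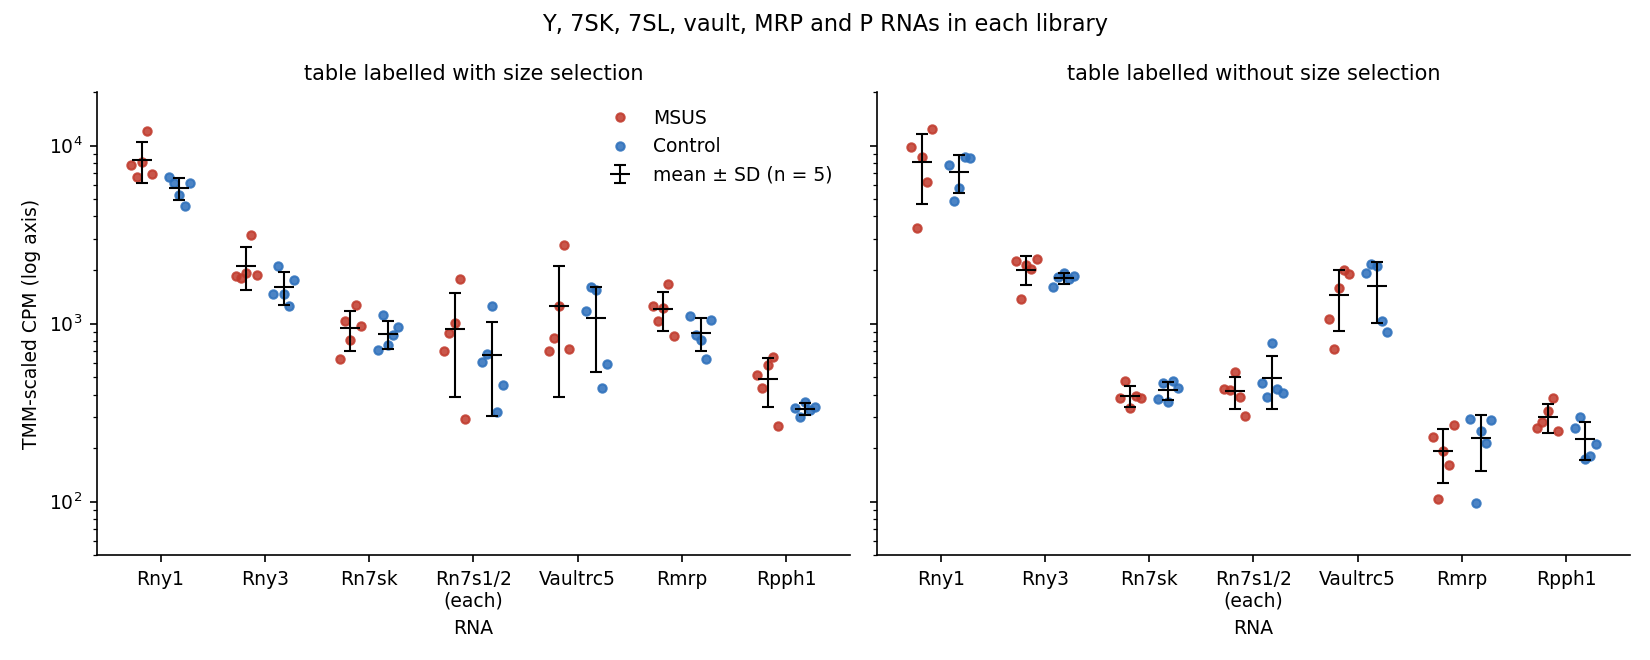
TMM-scaled CPM (log axis) of each RNA in every library of the selected table (left) and the unselected table (right). Red points are MSUS and blue points Control libraries, and bars give the mean ± SD of 5. Only the groups of Rny1 in the selected table do not overlap, with 6666 CPM in the lowest MSUS library and 6637 CPM in the highest Control library. Of all features tested in that table, 0.864% had groups that did not overlap. By CPM of the library the Rny1 groups overlap, at 4704 to 9614 in MSUS and 5288 to 8223 in Control libraries.

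Rn7sk, the 7SK RNA, had 632, 1040, 810, 1269 and 974 CPM in MSUS libraries of the selected table, against 711, 1112, 758, 863 and 955 CPM in Control libraries. The groups overlapped through most of their range, with a log2 fold change of +0.10 (SE 0.22, edgeR adjusted p = 0.999). It was −0.54 with library size only, −0.48 when scaled by miRNAs and −0.022 without MSUS 8. Its values in the unselected table were 382, 478, 336, 393 and 381 CPM in MSUS libraries, against 376, 464, 362, 474 and 436 CPM in Control libraries. They overlapped again, with a log2 fold change of −0.10 (SE 0.21, edgeR adjusted p = 0.880), which was −0.42 with library size only and −0.43 when scaled by miRNAs.

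Rn7s1, equal to Rn7s2 in every library, was the most variable of the 7SK and 7SL rows in the selected table. It had 701, 886, 1014, 1782 and 292 CPM in MSUS libraries, against 610, 679, 1259, 319 and 452 CPM in Control libraries. MSUS 14 was lower and MSUS 8 higher than every other library of either group. The log2 fold change was +0.49 (SE 0.44, edgeR adjusted p = 0.936), +0.13 without MSUS 8, +0.86 without Control 7, −0.28 with library size only and −0.13 when scaled by miRNAs. Rn7s1 in the unselected table had 427, 426, 539, 387 and 302 CPM in MSUS libraries, against 467, 388, 783 (Control 7), 431 and 405 CPM in Control libraries. The groups overlapped, and Control 7 stood above all others. This gave a log2 fold change of −0.25 (SE 0.25, edgeR adjusted p = 0.746), which was −0.035 without Control 7, −0.53 with library size only and −0.58 when scaled by miRNAs.

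Vaultrc5, the vault RNA, had 705, 827, 1253, 2749 and 723 CPM in MSUS libraries of the selected table, against 1177, 1601, 1545, 434 and 590 CPM in Control libraries. The sign of its difference rested on MSUS 8, since the log2 fold change was +0.23 (SE 0.45, edgeR adjusted p = 0.998) with that library and −0.28 without it. It was −0.51 with library size only and −0.35 when scaled by miRNAs. Vaultrc5 in the unselected table had 1068, 723, 1582, 1989 and 1898 CPM in MSUS libraries, against 1917, 2151, 2110, 1029 and 901 CPM in Control libraries. Control libraries fell into 3 high and 2 low ones, the low ones being Control 9 and Control 11 as in the selected table. The log2 fold change was −0.16 (SE 0.31, edgeR adjusted p = 0.871), and −0.68 without Control 9, Control 11 and MSUS 14. It ran from −0.34 to −0.0078 (without MSUS 4) with 1 library left out, and was −0.42 with library size only and −0.48 when scaled by miRNAs.

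Rmrp, the RNA of RNase MRP, had 1251, 1031, 1231, 1665 and 857 CPM in MSUS libraries of the selected table, against 1098, 865, 805, 635 and 1050 CPM in Control libraries. The groups overlapped, and 4 of 5 MSUS libraries were above the Control mean. The log2 fold change was +0.44 (SE 0.23, edgeR adjusted p = 0.879), and −0.23 with library size only and −0.068 when scaled by miRNAs. Its level in the unselected table was 230, 104, 194, 161 and 271 CPM in MSUS libraries, against 291, 98.7, 248, 213 and 286 CPM in Control libraries. MSUS 4 and Control 5 were low, and the groups overlapped (log2 fold change −0.24, SE 0.30, edgeR adjusted p = 0.773). The value was −0.52 with library size only and −0.55 when scaled by miRNAs. The lowest count behind these values was 27, in MSUS 8, for which the exact Poisson interval runs from 17.8 to 39.3 at 95% and covers counting error only.

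Rpph1, the RNA of RNase P, had the smallest p of the members in both tables. Its level in the selected table was 517, 434, 587, 646 and 265 CPM in MSUS libraries, against 334, 298, 363, 327 and 342 CPM in Control libraries. Of the MSUS libraries, 4 stood above all Control libraries, and MSUS 14 stood below all of them. The means were 490 ± 149 CPM in MSUS and 333 ± 23.9 CPM in Control libraries (SD, n = 5 each), with a log2 fold change of +0.56 (SE 0.22, edgeR unadjusted p = 0.0214, adjusted p = 0.839). It turned to −0.16 with library size only and to −0.029 when scaled by miRNAs. The unselected table gave 258, 279, 324, 381 and 248 CPM in MSUS libraries, against 261, 299, 173, 181 and 211 CPM in Control libraries. All 5 MSUS libraries lay above the Control mean, but Control 3 and Control 5 overlapped with them. The log2 fold change was +0.40 (SE 0.23, edgeR adjusted p = 0.563), and it kept its sign at +0.10 with library size only and at +0.11 when scaled by miRNAs.

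The median over all features tested in the selected table shifted to −0.58 with library size only and to −0.52 with miRNA scaling, against −0.0010 with TMM. All 7 quantities were positive with TMM, negative with both other scalings, and above the median of all features under each of the 3. A change of scaling moves features together, so these 3 comparisons with the median are not separate results. Without MSUS 8, with TMM, Vaultrc5 (−0.28) and Rn7sk (−0.022) were below the median of +0.0057 and the other quantities above it. The median of all features in the unselected table was +0.0085 with TMM, −0.30 with library size only and −0.32 when scaled by miRNAs. Rny1, Rny3 and Rpph1 were above it and Rn7sk, Rn7s1, Vaultrc5 and Rmrp below it under each scaling.

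**Figure D2:**
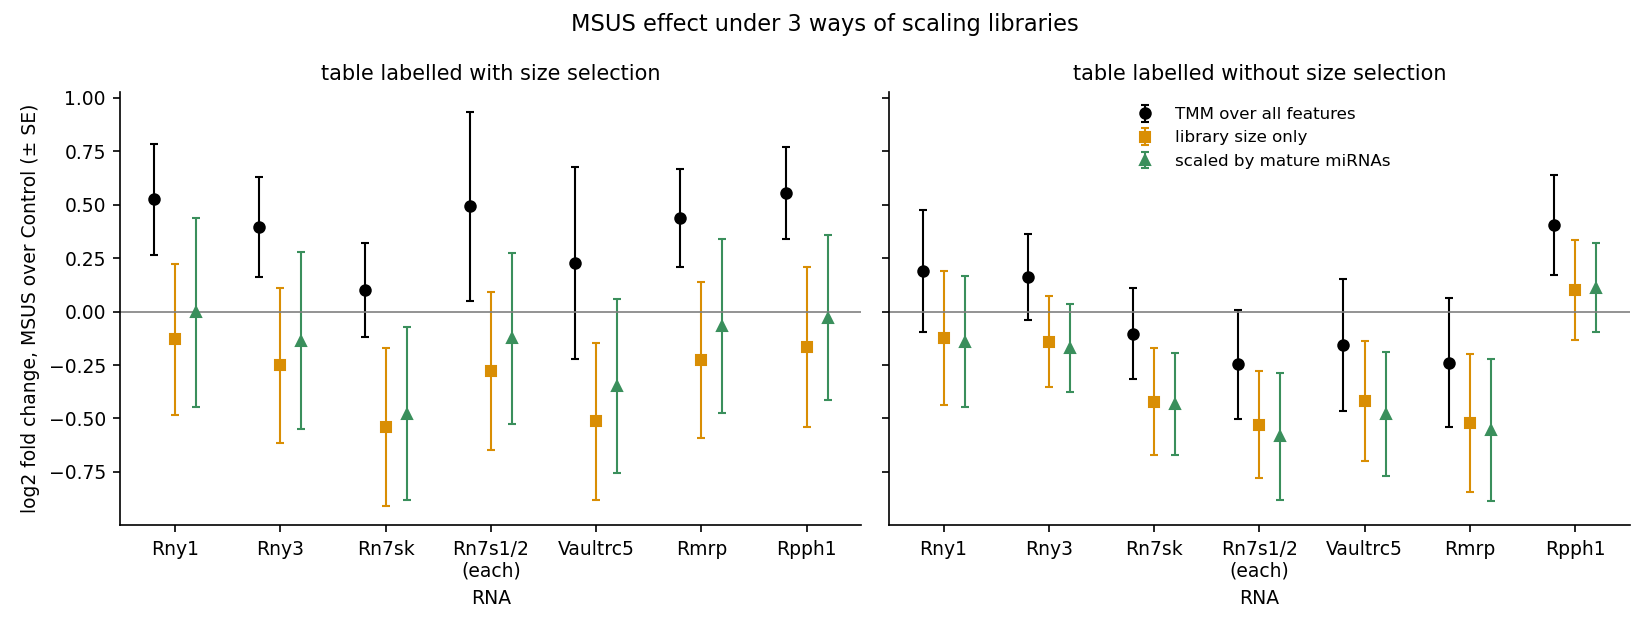
Log2 fold change of MSUS over Control with its SE for each RNA, under TMM over all features (black), library size only (orange) and scaling by mature miRNAs (green), in the selected table (left) and the unselected table (right). In the left panel every black point is above 0 and every other point at or below 0. In the right panel Rpph1 alone is above 0 under all 3.

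Ratios between RNAs of a library do not depend on scaling, and none of the 6 comparisons of MSUS with Control passed an exact two-sided permutation test. The smallest p that 252 permutations can give is 0.00794, and the adjusted p of all 6 was 0.833. The ratios are of counts and are not set per length. In the selected table, Rny1 over Rny3 was 4.22, 3.71, 4.18, 3.85 and 3.69 in MSUS libraries, against 4.52, 2.95, 3.59, 3.68 and 3.52 in Control libraries. All MSUS libraries lay above every Control library but Control 3, which was the highest of the 10. The geometric means were 3.92 in MSUS and 3.62 in Control libraries (exact permutation p = 0.302). Without Control 3 the difference was +0.20 on the log2 scale and passed (exact permutation adjusted p = 0.0476). Control 3 was the library that broke the order of the groups, so leaving it out fixed their full separation and this p. The groups then stood at 3.69 in MSUS 14 against 3.68 in Control 9. Of all ratio settings tried, only this 1 passed, and no conclusion is drawn from it. This ratio was 3.75 in MSUS and 3.87 in Control libraries of the unselected table, with ranges of 2.49 to 5.40 and 2.65 to 4.87 (exact permutation p = 0.833).

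Rn7sk over the sum of Rn7s1 and Rn7s2 was 0.575 in MSUS and 0.729 in Control libraries of the selected table (exact permutation p = 0.548). MSUS 14 at 1.67, Control 9 at 1.35 and Control 11 at 1.06 were the highest, against 0.818 or less in the other 7. The unselected table gave a ratio of 0.478 in MSUS and 0.441 in Control libraries (exact permutation p = 0.690). Rmrp over Rpph1 was 2.51 in MSUS and 2.63 in Control libraries of the selected table (exact permutation p = 0.714). In the unselected table it was 0.892, 0.378, 0.600, 0.426 and 1.09 in MSUS libraries, against 1.12, 0.334, 1.44, 1.18 and 1.36 in Control libraries. Control 5 had the lowest value of the 10, the other 4 Control libraries stood above every MSUS library, and the geometric means were 0.623 in MSUS and 0.971 in Control libraries (exact permutation p = 0.230). Without any one library the adjusted p of this ratio was 0.190 or more.

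**Figure D3:**
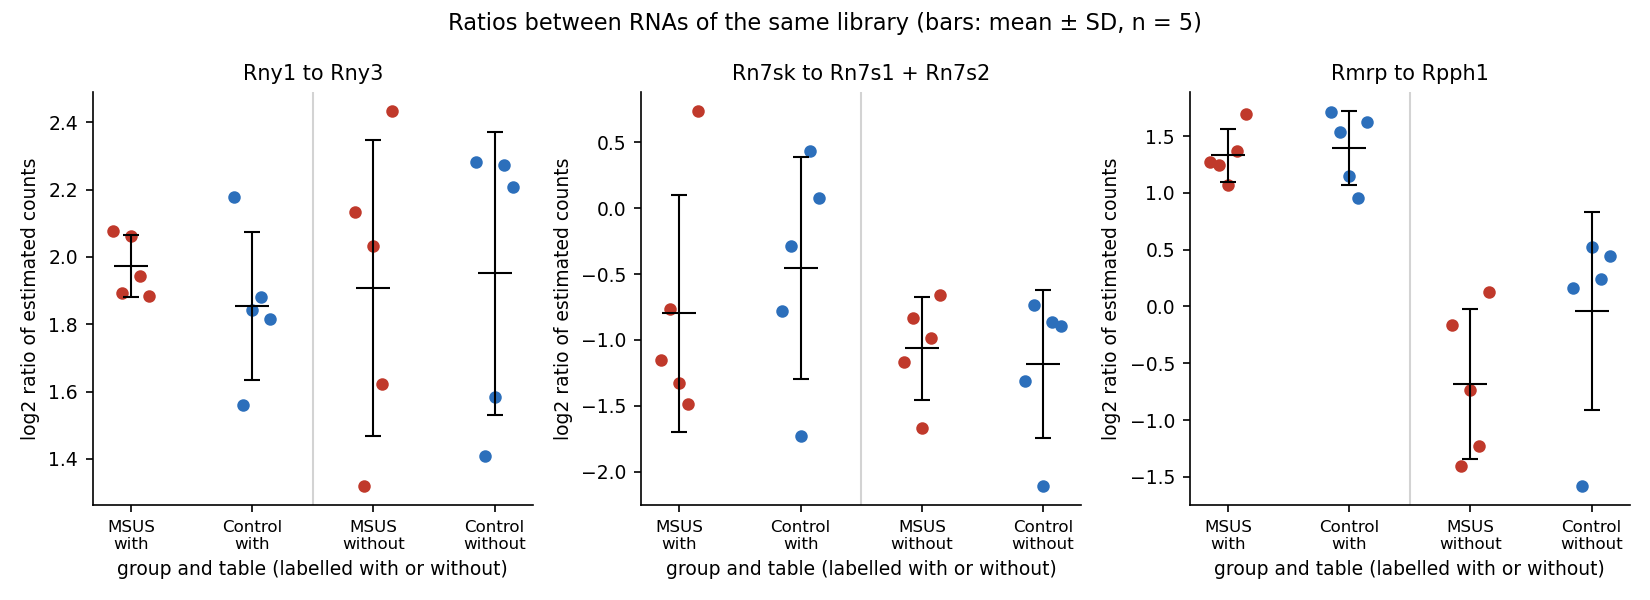
Log2 ratio of counts of Rny1 to Rny3 (left), Rn7sk to the sum of Rn7s1 and Rn7s2 (middle) and Rmrp to Rpph1 (right) in each library, by group and table. Red points are MSUS and blue points Control libraries, and bars give the mean ± SD of 5. Rmrp to Rpph1 is higher in the selected table than in the unselected table in 10 of 10 animals.

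The same 10 animals stand in both tables, so the tables were also compared with each other, over features present in both and with libraries scaled together. The main fit, which gave the values below, had condition as covariate but no term for the animal. Its SEs and p-values thus ignore the pairing and treat the 2 values of an animal as independent. Rmrp was higher in the selected table, while Rny1, Rny3 and Vaultrc5 were lower in it. Rmrp had 785 ± 217 CPM in the selected table and 269 ± 88.7 CPM in the unselected table (SD, n = 10 each), higher in 10 of 10 animals (log2 fold change +1.51, SE 0.20, edgeR adjusted p = 5.29e-07). Of 7142 features tested, 35.8% were called, 18.9% as higher and 16.8% as lower in the selected table. Of the 7 quantities, 1 was called higher and 3 lower. Vaultrc5 had 866 ± 507 CPM in the selected table and 1958 ± 650 CPM in the unselected table, lower in 10 of 10 animals (log2 fold change −1.18, SE 0.28, edgeR adjusted p = 0.00114). Rny3 had 1395 ± 380 and 2457 ± 409 CPM in the selected and unselected tables and was lower in 10 of 10 (log2 fold change −0.83, SE 0.16, edgeR adjusted p = 0.000135). Rny1 had 5274 ± 1527 and 9847 ± 3508 CPM and was lower in 8 of 10 (log2 fold change −0.92, SE 0.21, edgeR adjusted p = 0.000807). With the animal as a block, Rmrp (+1.62), Vaultrc5 (−1.18), Rny3 (−0.73) and Rny1 (−0.75) stayed called.

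Rn7s1 (+0.0065, SE 0.26) and Rpph1 (−0.14, SE 0.16) were not called. Rn7sk was not called either (log2 fold change +0.37, SE 0.15, edgeR adjusted p = 0.0550), but it was called with the animal as a replicate block (+0.47, SE 0.11, edgeR adjusted p = 0.00101), and higher in 9 of 10 animals. The median log2 fold change was +0.082 over all features tested and −3.14 over 316 mature miRNAs. The calls of Rny1, Rny3 and Vaultrc5 ended with library size only, at −0.033, +0.082 and −0.40, where the median of all features was +1.05 and that of miRNAs −2.21, and they ended without the filter on low counts, at −0.30, −0.19 and −0.55. Under library size only, Rn7sk (+1.31), Rn7s1 (+0.78) and Rpph1 (+0.77) were called higher, each with adjusted p of 0.000813 or less, and Rmrp stayed higher at +2.41.

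**Figure D4:**
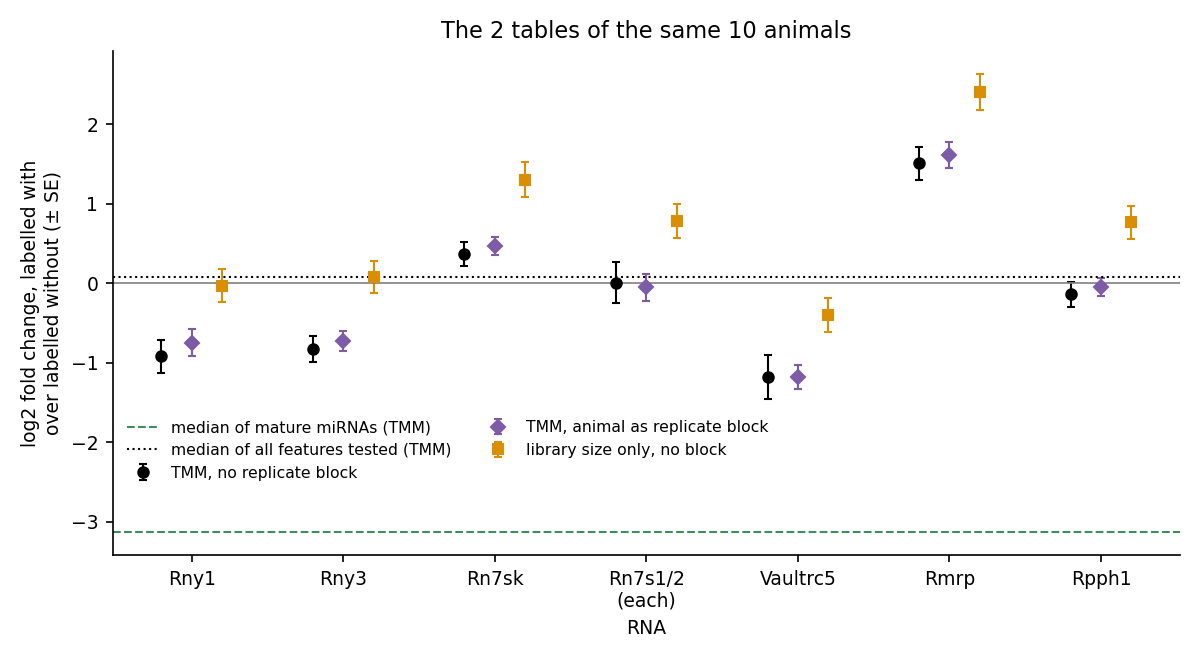
Log2 fold change of the selected table over the unselected table, with its SE, for each RNA under TMM (black), TMM with the animal as replicate block (purple) and library size only (orange). Dotted and dashed lines mark the TMM medians of all features tested (+0.082) and of mature miRNAs (−3.14). All values for Rmrp are above 1 and all values lie above the miRNA median.

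The same 3 ratios within a library, which do not depend on scaling, were compared between the tables. None of them sets Rny1, Rny3 or Vaultrc5 against another kind of RNA, so their differences were not tested free of scaling. Rmrp over Rpph1 was 2.57 in the selected table and 0.778 in the unselected table, and the ranges of 1.94 to 3.29 and 0.334 to 1.44 did not overlap. Rn7sk over 7SL was 0.647 and 0.459 in the selected and unselected tables, and higher in the selected table in 9 of 10 animals. Rny1 over Rny3 was 3.77 and 3.81 and was higher in 5 of 10. The difference of the MSUS effect between the tables was called for 0 of 10303 features by edgeR (0% called, 3.61% at an unadjusted p under 0.05), with the animal as a block. The member nearest to the threshold was Rmrp, whose MSUS effect was higher by 0.60 (SE 0.31) on the log2 scale in the selected table (unadjusted p = 0.0674, adjusted p = 1.00), followed by Rn7s1 at +0.59 (SE 0.32, unadjusted p = 0.0761).

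Control 9, Control 11 and MSUS 14, which had the lowest tRNA shares in the selected table, also stood apart in some members. In the unselected table their tRNA shares were 12.2, 12.6 and 8.65%, and Control 5 was the lowest at 6.20%. A smaller tRNA share leaves more of the library total to other RNAs, so CPM of the library is tied to that share. How much of the differences below comes from this tie was not tested. How many of all features separated these 3 libraries from the other 7 was not counted. A separation is therefore not read as particular to the members. By CPM of the library, Rny1 was at 7706 to 9614 in these 3 and at 4704 to 7269 in the other 7 of the selected table, and at 8425 to 11426 against 3006 to 8151 in the unselected table. Rn7sk was also higher in the 3 in the selected table, at 1266 to 1446 against 513 to 1213 CPM, but overlapped in the unselected table, at 351 to 604 against 277 to 442 CPM. Rn7s1 was lower in the 3 in the selected table, at 403 to 599 against 623 to 1264 CPM, and overlapped in the unselected table, at 277 to 549 against 276 to 678 CPM. The summed epididymal transcripts were higher in the 3 in both tables, at 4299 to 6427 against 951 to 3256 CPM in the selected and 1686 to 2313 against 828 to 1488 CPM in the unselected table, and their part in these differences was not tested. Rmrp, Rpph1, Rny3 and Vaultrc5 overlapped between the 3 and the 7 in both tables. Without these 3 libraries the log2 fold changes of MSUS over Control in the selected table were +0.52 for Rny1, +0.38 for Rny3, +0.13 for Rn7sk, +0.37 for Rn7s1, −0.061 for Vaultrc5, +0.49 for Rmrp and +0.72 for Rpph1, and none was called.

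**Figure D5:**
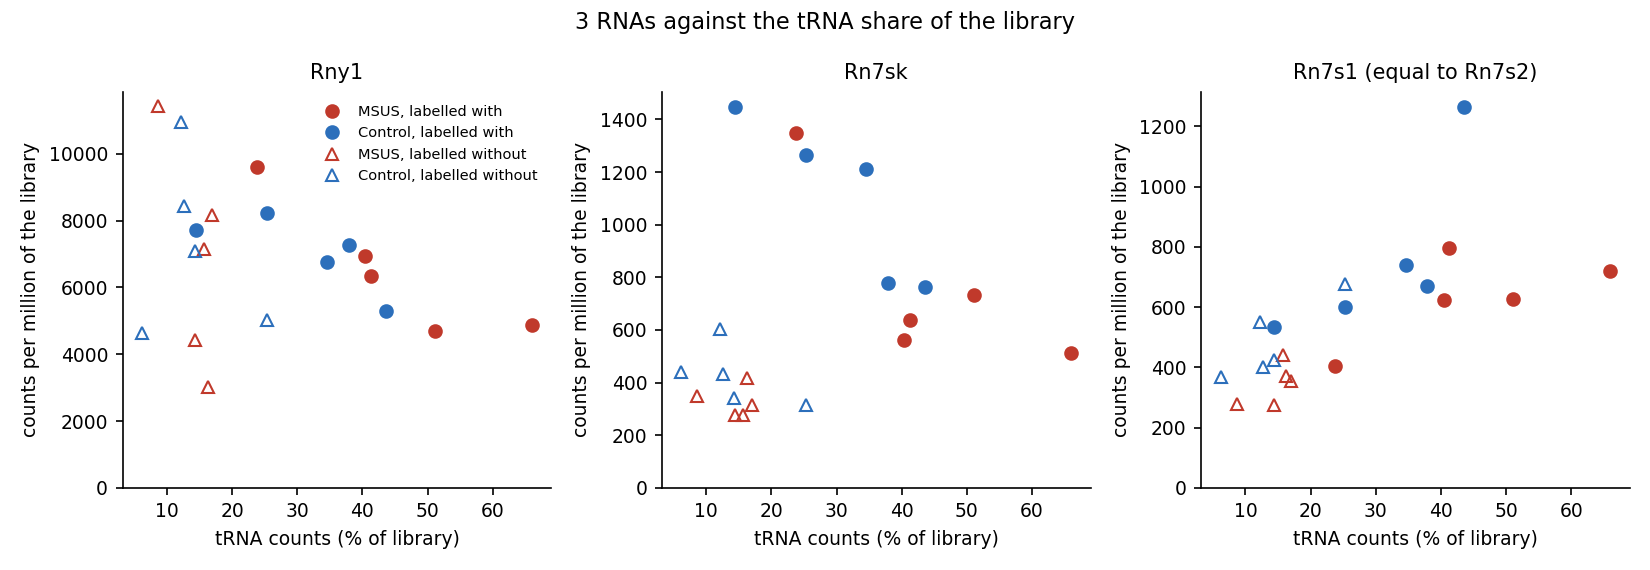
CPM of the library of Rny1 (left), Rn7sk (middle) and Rn7s1 (right) against the percentage of the library's counts on tRNA. Filled circles are libraries of the selected table and open triangles those of the unselected table, red for MSUS and blue for Control. In the selected table, the 3 libraries under 30% tRNA have the most Rny1 and Rn7sk and the least Rn7s1. How many other features separate these libraries in this way was not counted. Both axes are parts of the same library total, so they are not independent.

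For each member, the features whose TMM-scaled levels varied most like it were found among 1074 features tested in both tables, by the lower of the Pearson correlations over the 10 libraries of each table. The points share animals, libraries and scaling, and the values are a description. Rny1 was most like its own copies Gm24372 (0.929), Gm24379 (0.852) and Gm24203 (0.831). Rn7sk was most like its copies Gm24146 (0.708), Gm24447 (0.684) and Gm26315 (0.665). For both, the most similar rows are thus ones that share sequence with them. Rny3, whose annotated copy was a row of neither table, was most like miR-181d-5p (0.818), then Gm24372 (0.809) and Gm23921 (0.778), both copies of Rny1. Rny1 itself is identical to Rny3 in 72.3% of aligned positions, and the part of shared sequence in this likeness was not tested. Rmrp was most like miR-672-5p (0.797), Rny1 (0.788) and the Rny1 copy Gm24203 (0.726). Rpph1 was most like miR-455-5p (0.805), miR-29c-3p (0.742) and miR-29a-3p (0.734), Vaultrc5 like miR-140-5p (0.759) and the processed pseudogenes Gm6170 (0.751) and Gm6548 (0.731), and Rn7s1 like the snRNA Gm22739 (0.755), its own copy Gm26461 (0.754) and Irx1 (0.729), which encodes a transcription factor.

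Transcripts of the proteins that work with these RNAs were measured too, as fragments that reach a small RNA library. In the selected table, 0 of 9 tested transcripts of Ro and Y RNA proteins were called, 0 of 8 of the 7SK particle, 0 of 8 of the signal recognition particle, 0 of 3 of the vault particle, 0 of 1 of RNase P and MRP and 0 of 22 of RNA polymerase III and its factors. Their median log2 fold changes of MSUS over Control were +0.010, −0.0059, +0.018, +0.074, +0.28 and −0.14, against −0.0010 over all features. With library size only these medians were −0.56, −0.61, −0.57, −0.52, −0.26 and −0.73, against −0.58 over all features. Hnrnpk, an RNA-binding protein found with Y RNAs, averaged 176 ± 14.8 CPM in MSUS and 178 ± 15.5 CPM in Control libraries (SD, n = 5 each). Ncl, nucleolin, was at 133 ± 19.7 and 125 ± 16.1 CPM in MSUS and Control libraries.

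Among 7SK proteins, Hnrnpa2b1 averaged 141 ± 20.2 CPM in MSUS and 124 ± 7.40 CPM in Control libraries, and Hnrnpa1 44.7 ± 3.24 CPM in MSUS and 38.4 ± 3.44 CPM in Control libraries. Srp54b and Srp54a, near-identical genes for the GTPase of the signal recognition particle, were at 135 ± 4.18 and 62.7 ± 2.83 CPM in MSUS libraries and at 141 ± 10.2 and 66.1 ± 5.77 CPM in Control libraries. Tep1 and Mvp of the vault had log2 fold changes of +0.074 (SE 0.12) and +0.12 (SE 0.12), and Rpp14 of RNase P +0.28 (SE 0.35). Polr3b, a core subunit of RNA polymerase III, was at −0.082 (SE 0.17) and Gtf3c1 of its factor TFIIIC at −0.072 (SE 0.12). In the unselected table, 5 transcripts of these lists passed the filter and 0 were called. Srp54b was at 28.5 ± 9.87 CPM in MSUS and 49.1 ± 10.3 CPM in Control libraries (log2 fold change −0.62, SE 0.25, edgeR adjusted p = 0.554), and Hnrnpk, Ncl, Hnrnpa2b1 and Tep1 at −0.25, −0.14, +0.087 and −0.092 (Hnrnpa2b1 at −0.21 with library size only).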

How the data were processed

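Small RNA libraries of cauda epididymosomes from 5 MSUS and 5 Control males were sequenced in 2 runs (20 samples). The sample titles gave the group and the animal, and each run was tied to a table by the table's label. The authors deposited estimated counts for each annotated RNA, and many values are not whole. GRCm38, STAR and edgeR are named in the submitters' processing notes. No source used here describes how reads were assigned to RNAs or divided among copies. The members and all lists were chosen with earlier results of these data known. The genes named are the 8 members, the 2 tested genes with the highest mean CPM in each protein list, and the 3 features most like each member.

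Rounding to whole numbers took away 0.0504 to 0.0992% of a library in the selected table and 0.266 to 0.689% in the unselected one. The test over all features used edgeR 4.0.16 under R 4.3.3 (filterByExpr, TMM, robust quasi-likelihood test, Benjamini-Hochberg adjustment, threshold 0.05). Standard errors (SE) come from the quasi-likelihood F statistic. Tables were fitted separately for MSUS against Control and together for the comparison between tables, with condition as covariate and no animal term. Ratios used counts plus 0.5. Alternatives were library size only, TMM over mature miRNAs, DESeq2 1.42.0, no filter, 7SL rows summed, each library or 3 libraries left out, and a replicate block. Copies were found with blastn 2.17.0 (E-value 1e-05) and stems with RNAfold 2.7.2. By the titles, a number names the same animal in both tables. Over 1074 features, an animal's deviations from its group mean in one table correlated with those in the other at 0.366 to 0.763, and 9 of 10 animals were most like themselves. The edgeR test was checked on simulated data, with changes larger than those of any member between MSUS and Control. How often changes as small as those of the members would be found was not simulated. The 7SL sequence is not reported here.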

Additional observations from a re-analysis of the deposited data

Results flagged for a closer look

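In 7 of 40 groups of 5 libraries, 1 library lay far from the other 4, beyond the 95% critical value of Dixon's test. Chance marks about 1 in 20 groups, and these groups share libraries. MSUS 8 of the selected table was high in Rny1 (12079 TMM-scaled CPM, next MSUS library 8073), Rny3 (3137, next 1932) and Vaultrc5 (2749, next 1253). This library had the highest tRNA share, and its CPM of the library was not high for Rny1 (4885) or Rny3 (1269). For Vaultrc5 its CPM of the library, 1112, was the highest of the MSUS libraries and below Control 3, Control 5 and Control 7. The ratio of Rn7sk to 7SL was high in MSUS 14 of that table, at 1.67 against 0.587 in the next MSUS library.

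In the unselected table, Rny3 was low in MSUS 4 (1376 CPM, next 2031) and Rn7s1 was high in Control 7 (783 CPM, next 467). The ratio of Rmrp to Rpph1 was low in Control 5, at 0.334 against 1.12 in the next Control library.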

How the results depend on the processing

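For MSUS against Control in the selected table, edgeR called 0 features, against 3 with library size only or miRNA scaling (0 higher, 3 lower), 33 with DESeq2 (32 higher, 1 lower), 48 with no filter (40 higher, 8 lower) and 0 to 2 with a library left out (2 without Control 3). For the unselected table, 0 became 1 with library size only and 2 without Control 9, Control 11 and MSUS 14, and stayed 0 with any one library left out. No member was called under any of these. DESeq2 gave Rny1 an adjusted p of 0.0589 in the selected table (range over alternatives 0.0589 to 1.00). Signs turned with library size only in the selected table for Rny1 (−0.13), Rny3 (−0.25), Rn7sk (−0.54), Rn7s1 (−0.28), Vaultrc5 (−0.51), Rmrp (−0.23) and Rpph1 (−0.16), and with miRNA scaling (−0.0040, −0.14, −0.48, −0.13, −0.35, −0.068 and −0.029 in the same order). Rn7sk turned to −0.0028 with no filter and Vaultrc5 to −0.061 without the same 3 libraries. In the unselected table, Rny1 and Rny3 turned to −0.12 and −0.14 with library size only and −0.14 and −0.17 with miRNA scaling. Leaving out 1 library gave −0.022 to +0.22 for Rn7sk and −0.28 to +0.42 for Vaultrc5 in the selected table, and −0.015 to +0.37 for Rny1 in the other.

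Between the tables, the 2556 calls (35.8% of features) became 3667 of 10303 with the replicate block, 5681 with library size only (5144 higher, 537 lower), 8182 with no filter and 2146 to 2604 with an animal left out. With the replicate block Rn7sk became called and Rn7s1 was at −0.053, and no other call of a member changed. Rn7s1 was at −0.0036 with DESeq2 and at −0.20 to +0.091 with an animal left out. Rny3 turned to +0.082 and Rpph1 to +0.77 with library size only, and Rpph1 to +0.50 with no filter, where it became called (edgeR adjusted p = 0.0137), as did Rn7sk (+1.01, edgeR adjusted p = 3.98e-07). Rn7sk passed without MSUS 2 (edgeR adjusted p = 0.0428) and with DESeq2 (adjusted p = 0.0116), over a range of 3.02e-07 to 0.120. The contrast of MSUS effects across tables had 0 calls throughout. With library size only it turned to −0.0076 for Rny1, −0.17 for Rny3, −0.21 for Rn7sk, −0.059 for Vaultrc5 and −0.33 for Rpph1, and Rpph1 ran from −0.10 to +0.19 with an animal left out.

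Ratio differences on the log2 scale ran, with a library left out, from +0.044 to +0.20 for Rny1 to Rny3, −0.73 to −0.12 for Rn7sk to 7SL and −0.18 to +0.013 for Rmrp to Rpph1 in the selected table, and from −0.18 to +0.10, −0.11 to +0.27 and −1.03 to −0.46 in the other. The cause of these changes was not tested. Rmrp had 1456 to 5080 counts in the selected table and 27 to 247 in the unselected table, and the part of depth in its values was not tested.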
